A study of Rattus norvegicus with 15 samples.

Results

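The 5 arrays of design A were compared by kidney number, kidneys 4 and 5 against kidneys 1, 2 and 3, and these arrays are 5 of the 15 in the series. Members were taken from the titles alone, and 8740 probe sets other than the 59 spike-in and housekeeping controls carried a value. The series profiled total RNA of rat kidneys at 5 weeks of age on 3 designs of oligonucleotide arrays, with kidneys numbered 1 to 5 on each of designs A, B and C. Kidneys 1, 2 and 3 are described as Dahl salt-sensitive (Dahl S) on all 3 designs. Kidneys 4 and 5 are described as Dahl S on design A but as a strain congenic for chromosome 10 on designs B and C, so their strain on design A is unsettled. The contrast on design A is therefore one of kidney numbers, and no strain was read from the values. No diet or treatment is named for any kidney, and the sources used here do not give the donor strain, the ends of the congenic segment or the sex of the rats. It is also unstated whether each kidney is from its own animal, so the p-values measure a spread between samples that may be technical.

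The inbred Dahl S rat becomes hypertensive when fed salt, and it is a standard model of salt-sensitive hypertension. In a congenic strain a chromosome segment of a donor is bred onto the recipient's background, so that genes of the donor segment, and genes that respond to them, can differ between the strains. Chromosome 10 of the rat has long been studied for blood pressure loci in crosses of Dahl S. The questions asked of array A were which genes separated kidneys 4 and 5 from the others, and whether those genes lay on chromosome 10.

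All 5 arrays carried the transcripts of kidney tissue. Umod, the uromodulin of the thick ascending limb, had a signal between 29721 and 38633. Aqp2, the vasopressin-regulated water channel of the collecting duct, lay between 5434 and 8110. Signal is the deposited linear intensity of a probe set, and each array had a trimmed mean between 1001.2 and 1001.3. The Spearman correlation of log2 signal over tested probe sets was 0.951 to 0.963 among kidneys 1, 2 and 3, 0.930 to 0.962 across the groups and 0.941 between kidneys 4 and 5. A probe set was said to isolate a kidney where that kidney lay more than 1 log2 unit outside the range of the other 4. Kidney 4 stood apart by this measure. It was isolated at 50 of 4411 tested probe sets (1.13%), 26 with the highest and 24 with the lowest value, against 7, 9, 19 and 9 probe sets for kidneys 1, 2, 3 and 5. This was not particular to design A. The kidney numbered 4 was isolated at 48 of 4385 probe sets on B (1.09%) and 42 of 4420 on C (0.95%). The other kidneys were isolated at 13 to 21 probe sets on B and 3 to 24 on C. Many named genes are therefore given with the values of kidneys 4 and 5 apart, while for some only the difference of both together is given. The count of calls and the chromosome 10 shares are given also without each of the 2 kidneys. A measure of RNA integrity also moved with the groups. The 3′ to 5′ signal ratio of Gapdh was 1.07, 1.065 and 1.072 in kidneys 1, 2 and 3 and 1.04 and 1.043 in kidneys 4 and 5. The same ratio of beta-actin was 1.45, 1.552 and 1.422 against 1.322 and 1.347. The part of these ratios in the differences between the groups was not tested.

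No gene passed the test. limma called 0 of 4411 probe sets (0.0%) at a Benjamini-Hochberg adjusted p of 0.05, and the smallest adjusted p was 0.586. With no adjustment, 154 probe sets (3.49%) had a p under 0.05, of which 81 (1.84%) were higher and 73 (1.65%) were lower in kidneys 4 and 5. A p under 0.01 was reached by 31 (0.703%), 16 higher and 15 lower. Values did not overlap between the groups at 836 probe sets (19.0%), 389 higher and 447 lower. A difference of at least 2-fold without overlap was found at 15 probe sets, 11 higher and 4 lower. Taken gene by gene, with the brightest probe set of each, 89 of 2736 genes (3.25%) had an unadjusted p under 0.05 and 524 (19.2%) did not overlap. The median log2 difference over all tested probe sets was -0.02, with a median standard error of 0.20. All genes described from here on for array A had an adjusted p of at least 0.9987 in this fit, except U91561_at. Their differences are given as measurements.

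The count of calls depended on which of kidneys 4 and 5 was kept. Without kidney 5, so that kidney 4 alone stood against kidneys 1, 2 and 3, limma called 25 of 4411 probe sets (0.567%), 14 higher and 11 lower. Without kidney 4 it called 0, with 157 at an unadjusted p under 0.05. In both fits the lone kidney is assumed to vary like the others. Some of the probe sets called without kidney 5 had no gene symbol and cannot be placed on a chromosome. Among the named genes called, Trpv1 was the only one on chromosome 10. That chromosome holds 9.21% of all tested genes with a known chromosome.

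Named genes were the 24 probe sets with 1 gene symbol and the smallest p among those without overlap. They stood for 22 genes, and 13 probe sets were higher and 11 lower in kidneys 4 and 5. In 11 of the 24 the difference in kidney 5 was at least 0.75 of that in kidney 4, and in 6 it was under 0.5 of it. Probe sets on which both kidneys moved alike are described first.

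Tnfrsf11b encodes osteoprotegerin, the soluble decoy receptor that binds RANK ligand. Its signal was 721.9, 582.3 and 698.4 in kidneys 1, 2 and 3 and 1278.4 and 1379.0 in kidneys 4 and 5. Both later kidneys lay far above the other 3. The means were 668 ± 74.7 (SD, n = 3) and 1329 ± 71.1 (SD, n = 2), and the log2 difference was 0.998 (SE 0.17, 95% interval 0.59 to 1.41). Leaving out any 1 kidney gave a log2 difference between 0.90 and 1.06.

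Krt19, a type I keratin of simple epithelia, was the next in order of p and lies on chromosome 10. Its brighter probe set read 927.5, 787.2 and 968.4 in kidneys 1, 2 and 3 and 458.6 and 468.3 in kidneys 4 and 5. The groups did not overlap, and kidneys 4 and 5 were nearly equal. The means were 894 ± 95.04 (SD, n = 3) and 464 ± 6.86 (SD, n = 2), and the log2 difference was -0.94 (SE 0.17, 95% interval -1.34 to -0.55). A dimmer probe set for the same gene read 554.6, 516.3 and 561.6 against 246.5 and 365.4, a log2 difference of -0.86 (SE 0.21).

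Several genes of other chromosomes had a probe set with the same even pattern. Emc8, a subunit of the endoplasmic reticulum membrane protein complex, read 315.4, 216.2 and 184.2 in kidneys 1, 2 and 3 and 492.8 and 490.2 in kidneys 4 and 5, a log2 difference of 1.08 (SE 0.24). Slc16a1, a monocarboxylate transporter, read 643.4, 597.4 and 480.4 against 901.4 and 887.8, a log2 difference of 0.65 (SE 0.18). RT1-N3, a class I gene of the major histocompatibility complex, read 272.0, 181.8 and 332.3 against 515.9 and 468.3, a log2 difference of 0.95 (SE 0.26). On these 3 probe sets every later kidney lay above every earlier one. A further tested probe set of Slc16a1 read 246.5, 335.6 and 312.5 against 316.0 and 411.1, with overlap.

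On the lower side, Pdzk1, a scaffold protein of the proximal tubule brush border, read 4693.3, 5802.0 and 4706.5 in kidneys 1, 2 and 3 and 3435.7 and 3056.2 in kidneys 4 and 5. The log2 difference was -0.64 (SE 0.18). Ate1, an arginyltransferase that marks proteins for degradation, read 342.3, 413.7 and 427.7 against 267.4 and 239.9, a log2 difference of -0.63 (SE 0.18). Both genes were lower in each later kidney. Dcn, the matrix proteoglycan decorin, had 1 probe set at 505.9, 658.7 and 516.2 against 356.1 and 353.0, a log2 difference of -0.65 (SE 0.18). Its 3 other tested probe sets gave -0.49, -0.30 and -0.37, and in each of them the groups overlapped.

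**Figure D1:**
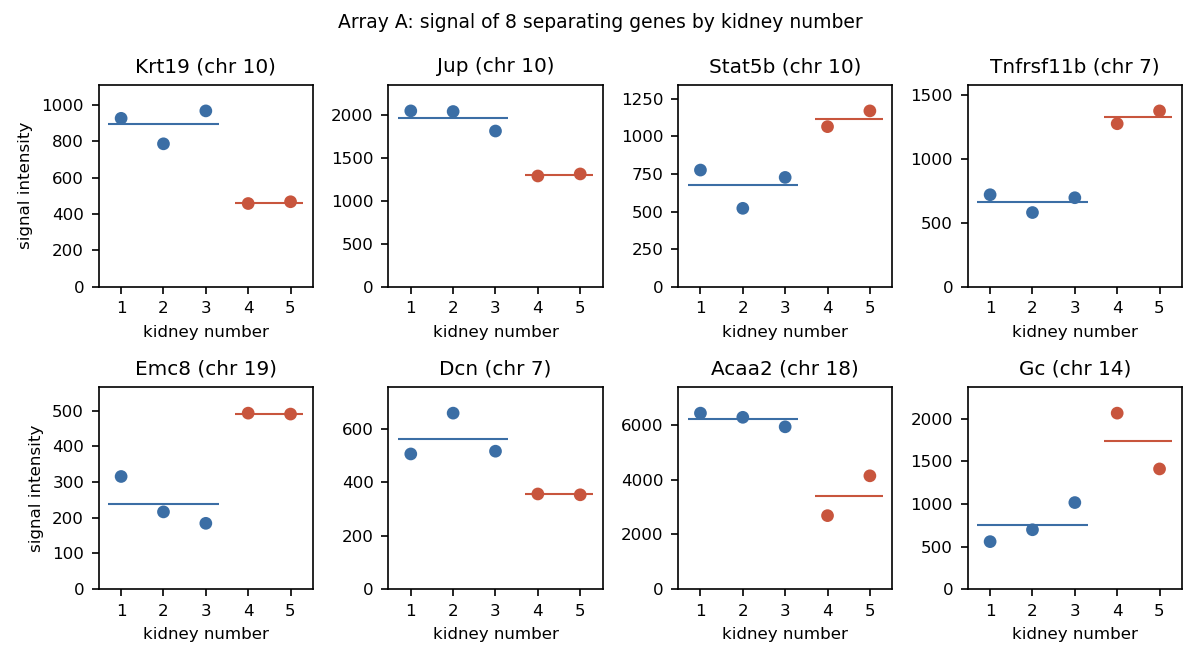
Signal intensity (linear, from 0) of 8 genes on array A by kidney number, with kidneys 1 to 3 in blue, kidneys 4 and 5 in red and lines at the group means. On the probe set shown for each gene the groups do not overlap, though they do on other probe sets of Dcn. Kidneys 4 and 5 lie close together for Krt19 (458.6 and 468.3) and Emc8 (492.8 and 490.2) but apart for Acaa2 (2681.8 and 4135.7) and Gc (2068.2 and 1412.4).

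In other genes kidney 4 carried more of the difference. Acaa2, a mitochondrial thiolase of fatty acid oxidation, read 6424.0, 6272.0 and 5924.9 in kidneys 1, 2 and 3 and 2681.8 and 4135.7 in kidneys 4 and 5. Kidney 5 lay between kidney 4 and the earlier kidneys, and the log2 difference of -0.90 (SE 0.22) became -0.59 without kidney 4. Sod3, the extracellular superoxide dismutase, read 1683.5, 1538.2 and 1439.1 against 374.7 and 901.5. Its log2 difference was -1.42 (SE 0.35), and -0.78 without kidney 4. A brighter probe set of Sod3 read 6999.6, 5364.8 and 6154.3 against 3278.0 and 5489.5, where kidney 5 lay within the range of the earlier kidneys.

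Gstm1 and Gstm7 encode glutathione S-transferases of the mu class, which conjugate glutathione to foreign compounds. The 3 tested probe sets of Gstm1 gave log2 differences of -0.72, -0.89 and -0.83. The brightest of them read 4215.1, 3530.8 and 3355.6 against 1530.0 and 2581.1. Gstm7 read 1437.5, 1470.0 and 966.9 against 600.3 and 757.7, a log2 difference of -0.91 (SE 0.24). Gstm2, another member of the class, overlapped on both of its tested probe sets, with deviations of 0.08 and -0.004 in kidney 4 and -0.43 and 0.10 in kidney 5. Members of this class are similar in sequence, so that probe sets may respond to more than 1 of them.

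Gc, the vitamin D-binding protein, read 557.8, 697.4 and 1017.0 in kidneys 1, 2 and 3 and 2068.2 and 1412.4 in kidneys 4 and 5, a log2 difference of 1.22 (SE 0.29). Proc, the anticoagulant protein C, read 443.6, 485.5 and 450.4 against 759.1 and 662.2, a log2 difference of 0.63 (SE 0.16). Each was highest in kidney 4 and next highest in kidney 5. Rbp4, the plasma carrier of retinol, read 490.9, 601.7 and 628.4 against 2994.6 and 932.1, and its log2 difference of 1.55 (SE 0.44) became 0.71 without kidney 4.

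Cyp2c11, a cytochrome P450 known as the major male-specific form of rat liver, had the widest difference of the 24. Its brightest probe set read 62.3, 83.2 and 78.4 in kidneys 1, 2 and 3, all below the floor of 85.1 used in the test, and 2900.4 and 380.6 in kidneys 4 and 5. Kidney 4 was by far the brightest, with kidney 5 next. The log2 difference of 3.63 (SE 0.73) is measured from the floor, and it was 2.16 without kidney 4. The other probe sets of Cyp2c11 read 68.1, 97.6 and 156.2 against 748.5 and 155.4, and 83.3, 78.5 and 92.3 against 212.1 and 67.4. Kidney 4 was the highest on every probe set, while kidney 5 exceeded the earlier kidneys on a single one.

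Ephx2, the soluble epoxide hydrolase that degrades epoxides of arachidonic acid, was the last of the 24. The probe set read 1110.2, 940.1 and 1054.1 in kidneys 1, 2 and 3 and 2319.2 and 1415.6 in kidneys 4 and 5, a log2 difference of 0.81 (SE 0.24). Of the other 3 probe sets for this gene, none was high in kidney 5. They read 1293.0, 548.8 and 774.7 in kidney 4 and between 26.1 and 138.5 in the other 4 kidneys.

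For 3 genes of the 24, other probe sets pointed the other way. Pex14, a docking protein of peroxisomal import, gave 0.91 with 470.0, 382.3 and 402.6 against 885.3 and 690.3, but -0.20 on a brighter probe set. Pja2, a ubiquitin ligase, gave 0.65, but -0.16 and -0.38 on its other probe sets. Igfbp5, a binding protein of insulin-like growth factors, gave 0.77, but -0.05 on its other tested probe set. No direction is given for these 3 genes.

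Of the probe sets without a single gene symbol, U91561_at had the smallest p of the array (unadjusted p = 0.000133, adjusted p = 0.586). It read 670.5, 721.1 and 738.0 in kidneys 1, 2 and 3 and 1558.0 and 1589.9 in kidneys 4 and 5, a 2.22-fold difference (95% interval of the log2 difference 0.79 to 1.51). Its companion U91561_g_at read 648.4, 618.4 and 687.4 against 883.1 and 1247.8, a log2 difference of 0.69 (SE 0.20). Neither overlapped, and neither can be placed on a chromosome with the tables used.

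Chromosome 10 held 251 of the 2725 tested genes with a known chromosome. Of these, 11 (4.38%, exact binomial 95% interval 2.21% to 7.71%) had an unadjusted p under 0.05, 4 higher and 7 lower in kidneys 4 and 5. On the other chromosomes it was 78 of 2474 (3.15%, interval 2.5% to 3.92%). At an unadjusted p under 0.01 chromosome 10 had 3 genes (1.2%) and the others 13 (0.525%). Values did not overlap for 58 genes of chromosome 10 (23.1%, interval 18% to 28.8%) and 463 of the others (18.7%, interval 17.2% to 20.3%). Both pairs of intervals overlap. Without kidney 4 the share at an unadjusted p under 0.05 was 4.38% on chromosome 10 and 3.27% elsewhere. Without kidney 5 it was 6.77% and 7.44%, so that the order of the shares turned. Kidney 5 alone lay outside the range of kidneys 1, 2 and 3 for 55.4% of chromosome 10 genes and 47.2% of the others (48.0% of all). Kidney 4 alone did so for 51.4% and 54.2% (53.9% of all), and here too the order turned. The shares for 1 later kidney alone were added after seeing the data. The intervals cover counting error over genes, which are not independent.

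Other chromosomes ranked above it. The ranks use both kidneys. By the share at an unadjusted p under 0.05, chromosome 10 was number 6 of 21. Above it were chromosomes 18 (4 of 49 genes, 8.16%), X (5 of 71, 7.04%) and 16 (4 of 77, 5.19%). Chromosomes 7 (10 of 205, 4.88%) and 11 (3 of 67, 4.48%) were also above it. Most of these shares rest on few genes, so the ranks are loose. By the share without overlap chromosome 10 was number 4, after chromosomes 16 (27.3%), 13 (27.1%) and 11 (23.9%). Its median log2 difference was -0.02, against -0.01 over all tested genes.

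**Figure D2:**
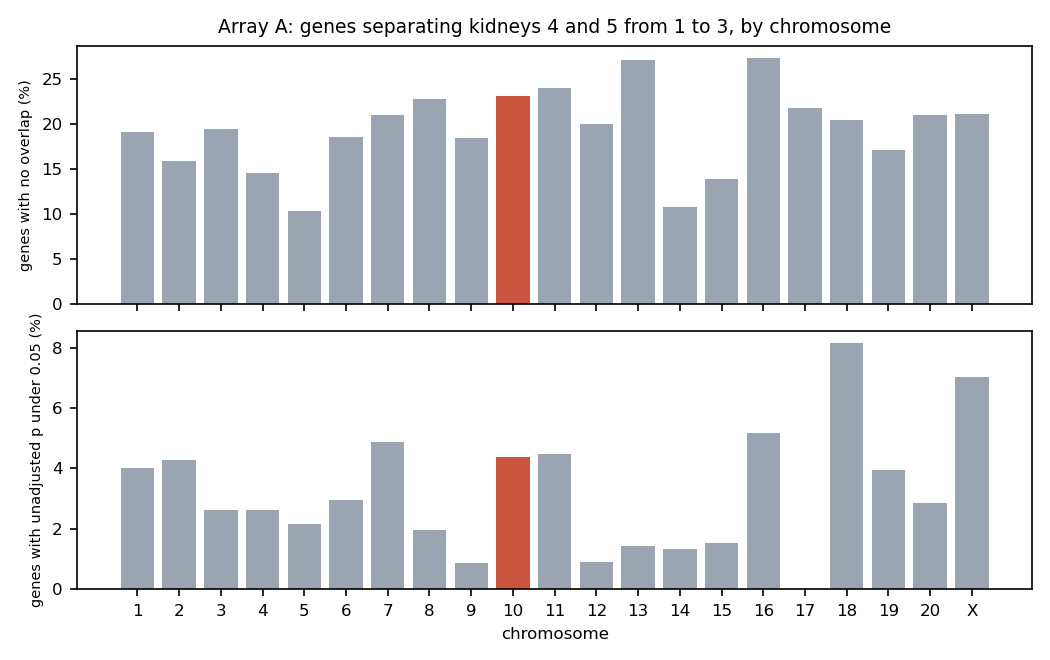
Percent of tested genes on each chromosome (bars, from 0) whose values do not overlap between kidneys 4 and 5 and kidneys 1 to 3 on array A (top), or whose unadjusted limma p is under 0.05 (bottom). Chromosome 10, in red, stands at 23.1% and 4.38%, below chromosomes 16 and 11 in both panels.

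The same kidney numbers were compared on designs B and C, where kidneys 4 and 5 are described as congenic. Without overlap there were 63 of 267 chromosome 10 genes on B (23.6%) and 417 of 2580 elsewhere (16.2%), with 16.9% over all genes placed on a chromosome. On C there were 80 of 278 (28.8%) and 589 of 2784 (21.2%), with 21.8% over all. On B, kidney 5 alone lay outside the earlier kidneys for 49.4% of chromosome 10 genes and 44.1% of the others (44.6% of all), and kidney 4 alone for 58.8% and 52.1% (52.7% of all). On C the shares were 55.8% and 53.2% (53.5% of all) for kidney 5 and 56.1% and 52.0% (52.4% of all) for kidney 4. With both kidneys, the intervals by lack of overlap on B were 18.6% to 29.2% on chromosome 10 and 14.8% to 17.6% elsewhere. On C they were 23.5% to 34.5% and 19.7% to 22.7%. At an unadjusted p under 0.05 the shares on B were 4.87% (interval 2.62% to 8.18%) and 2.98% (2.36% to 3.72%). On C they were 11.2% (7.7% to 15.5%) and 4.85% (4.08% to 5.71%). The intervals were apart on B by lack of overlap and on C by both measures, but on A by neither. With both kidneys the share was higher on chromosome 10 on all 3 designs, and the difference between designs was not tested.

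Krt19, Jup and Stat5b were the 3 genes of chromosome 10 at an unadjusted p under 0.01, and they are close neighbours. In the order of the 251 tested genes they hold places 181, 182 and 186. Jup encodes plakoglobin, a protein of desmosomes and adherens junctions. It read 2047.7, 2040.4 and 1813.4 in kidneys 1, 2 and 3 and 1290.1 and 1313.9 in kidneys 4 and 5, with means of 1967 ± 133 (SD, n = 3) and 1302 ± 16.8 (SD, n = 2). Each later kidney was lower, and the log2 difference was -0.59 (SE 0.16, 95% interval -0.97 to -0.22).

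Stat5b, a transcription factor of growth hormone and cytokine signalling, differed in the opposite direction. It read 775.1, 521.1 and 726.3 in kidneys 1, 2 and 3 and 1063.2 and 1167.8 in kidneys 4 and 5, with means of 674 ± 135 (SD, n = 3) and 1116 ± 74.0 (SD, n = 2). The later kidneys were both higher, and the log2 difference was 0.75 (SE 0.21, 95% interval 0.24 to 1.25). With any 1 kidney left out the log2 differences were -0.65 to -0.56 for Jup and 0.57 to 0.86 for Stat5b, and their signs could not turn because the groups do not overlap.

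The promoters of Jup and Stat5b are shown because these neighbours differed in opposite directions. Each sequence is the 250 bases before the gene's start, read 5′ to 3′ on the minus strand of GRCr8 (RefSeq), at chr10:85827430-85827679 for Jup and chr10:86275953-86276202 for Stat5b. Capitals mark a GC box on the printed strand.
Jup: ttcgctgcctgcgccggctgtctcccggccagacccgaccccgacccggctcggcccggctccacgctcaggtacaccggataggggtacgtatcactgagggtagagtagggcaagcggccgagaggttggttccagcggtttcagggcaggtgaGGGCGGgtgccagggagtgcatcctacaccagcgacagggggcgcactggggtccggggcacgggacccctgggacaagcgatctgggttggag
Stat5b: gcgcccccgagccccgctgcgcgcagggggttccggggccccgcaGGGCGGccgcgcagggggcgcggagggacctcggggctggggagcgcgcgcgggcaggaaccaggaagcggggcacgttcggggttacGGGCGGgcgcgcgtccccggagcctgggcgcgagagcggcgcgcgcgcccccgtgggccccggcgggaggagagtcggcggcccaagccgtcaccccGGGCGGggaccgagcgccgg
The motifs searched, on both strands, were the TATA box (TATAAA), the GC box (GGGCGG) and the CCAAT box (CCAAT). Neither promoter holds TATAAA or CCAAT, while GGGCGG occurs 1 time in Jup and 3 times in Stat5b. Over 33469 promoters of the same table, 12.9% hold TATAAA, 30.5% hold GGGCGG and 34.0% hold CCAAT. The base composition differed, with 68.8% G and C in Jup and 84.0% in Stat5b.

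Genes between and beside these neighbours did not follow one direction. From Krt19 to Stat5b there are 6 tested genes, a stretch bounded by genes picked for their p. Of these, 4 did not overlap and 3, the picked ones, had an unadjusted p under 0.05, against 19.2% and 3.25% of all tested genes, and nothing is read from these counts. Acly, the ATP citrate lyase of fatty acid synthesis, gave a log2 difference of -0.03 and Nkiras2, an inhibitor of NF-kappa-B signalling, 0.24, both with overlap. Hcrt, the hypocretin neuropeptide precursor, read 724.1, 788.5 and 749.4 against 628.8 and 602.4, a log2 difference of -0.29. Stat5a, which is close to Stat5b in sequence, read 520.9, 410.0 and 255.7 against 261.2 and 280.3, a log2 difference of -0.49 with overlap. Stat3 gave 0.12.

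Slfn5, a member of the Schlafen family, was the next gene of chromosome 10 by p. It read 2376.0, 1849.9 and 1596.4 in kidneys 1, 2 and 3 and 3064.0 and 2996.1 in kidneys 4 and 5, a log2 difference of 0.66 (SE 0.21). Both later kidneys were above the other 3. Snn, which encodes stannin, gave 0.68 (1456.8, 1387.1 and 917.9 against 1889.0 and 2061.1). Pctp, a phosphatidylcholine transfer protein, gave 0.45 (547.1, 553.4 and 558.0 against 834.8 and 684.9).

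The remaining 5 genes of chromosome 10 had a negative difference on the probe set that was counted. Irf1, a transcription factor of the interferon response, read 1172.1, 955.8 and 1068.2 against 637.8 and 841.1, a log2 difference of -0.54. Hmmr, a receptor for hyaluronan that also binds the mitotic spindle, read 364.0, 506.7 and 409.9 against 264.1 and 318.9, a log2 difference of -0.54. Fzd2, a Wnt receptor, read 414.8, 444.4 and 443.2 against 282.7 and 351.6, a log2 difference of -0.46. In all 3 kidney 4 was the lowest and kidney 5 the next lowest. Igfals, the acid-labile subunit that holds insulin-like growth factors in plasma, gave -0.46 on 1 probe set and -0.10 and -0.28 on the others. Ntan1, an amidase of the N-end rule of protein degradation, gave -0.49 on 1 probe set and 0.02 on the other, so no direction is given for it.

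The genes without overlap were spread along the chromosome. In 4 parts of 62 or 63 genes each, in gene order, the share without overlap was 31.7% from Myh11 to Zfp496, 22.2% from Mprip to Git1, 22.6% from Taok1 to Stat3 and 15.9% from Atp6v0a1 to Metrnl. Genes at an unadjusted p under 0.05 numbered 5, 0, 5 and 1 in the same parts. Where the congenic segment lies in this order is unstated.

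**Figure D3:**
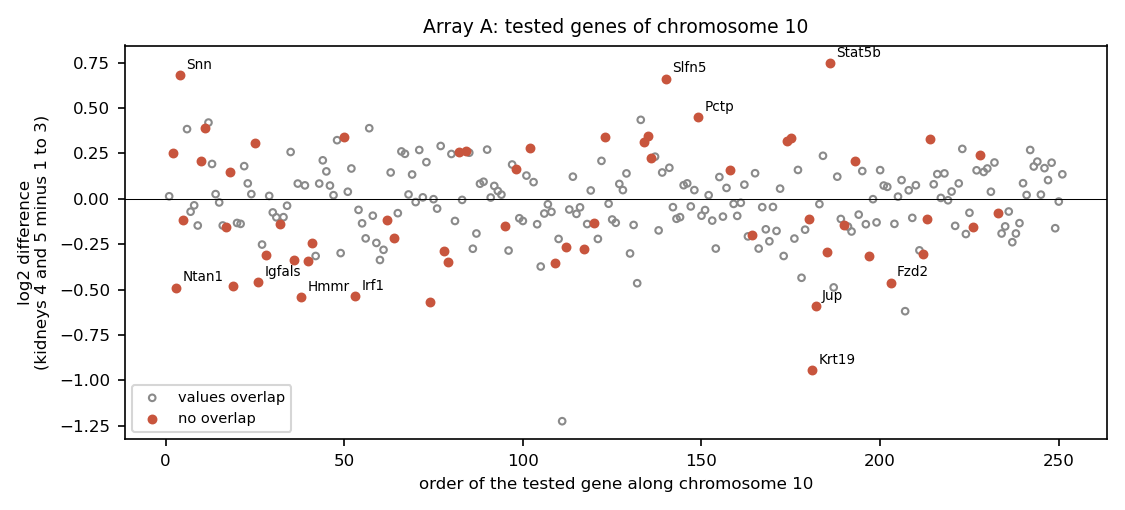
Log2 difference (kidneys 4 and 5 minus kidneys 1 to 3) of the 251 tested genes of chromosome 10 on array A against their order along the chromosome, with filled red points where the groups do not overlap and open points where they do. Named points are the 11 genes with an unadjusted p under 0.05, and Krt19 (-0.94), Jup (-0.59) and Stat5b (0.75) sit near places 181 to 186.

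Krt19 was measured on all 3 designs. On B it read 1739.4, 1457.6 and 1727.0 in kidneys 1, 2 and 3 and 613.3 and 1039.4 in kidneys 4 and 5, a log2 difference of -1.04 (SE 0.24, adjusted p = 0.934). On C it read 1625.0, 1290.3 and 1566.9 against 536.7 and 476.3, a log2 difference of -1.56 (SE 0.16, adjusted p = 0.0754). The groups did not overlap on any design. Each design was scaled by itself, so signal levels are not compared between designs, and the kidneys behind equal numbers are the same ones only if the numbering is shared. Without kidney 5 the log2 difference of Krt19 was -1.415 on B, -1.47 on C and -0.96 for its brighter probe set on A. Without kidney 4 it was -0.65 on B, -1.64 on C and -0.93 on A. Krt19 is also on the list of collecting duct markers. Of 9 tested genes on that list, 5 were higher and 4 lower, and the 11 genes of the list on the array summed to 37200 to 43290 in kidneys 1, 2 and 3, 43980 in kidney 4 and 40830 in kidney 5.

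Vezf1, a zinc finger gene of chromosome 10 that separated the groups on B, did not do so on A. On B it read 678.1, 516.5 and 754.7 against 1125.5 and 1273.4, a log2 difference of 0.90. On A it read 1168.5, 1170.4 and 1187.1 against 938.5 and 1388.0, with kidneys 4 and 5 on opposite sides of the earlier kidneys and a log2 difference of -0.04. Nsf, another gene chosen from B and C, was below the filter on both of its probe sets on A.

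Of the 110 genes that the naming rule chose, 29 had a tested probe set on B or C. Of these, 6 had no overlap on their brightest probe set of A and on any probe set of B or C. By the brightest probe set, 16.9% of all genes placed on a chromosome had no overlap on B and 21.8% on C. Those are shares of a single design, and the rule chose part of the genes for lack of overlap on A, so nothing is read from the count. The 6 genes were Krt19, Col1a2, Fdft1, Hsp90b1, Proc and Rpl30, and they did not all keep their direction. Proc gave 0.63 on A and -0.30 on C, and Rpl30 gave 0.87 on A and -0.40 on C. Hsp90b1 gave -0.29 on A, and -0.07 and 0.035 on its other tested probe sets there, but 0.53 and -0.33 on C. Col1a2, a chain of type I collagen, read 3431.5, 2676.5 and 3733.4 against 2013.2 and 2603.4 on A, a log2 difference of -0.51. On C its 5 tested probe sets gave -0.26 to -0.76, and only those at -0.76 and -0.47 had no overlap. Fdft1 gave 0.25 on A and -0.08, 0.23 and 0.06 on C, with no overlap only at 0.23. Pdzk1 gave -0.04 on C, Snn 0.09 on B and Hmmr 0.01 on C, all with overlap. Dcn (-0.16) and Igfbp5 (0.29) had no overlap on C.

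Across genes tested on 2 designs, the deviation of each kidney from the mean of all 5 was correlated between designs. For kidney 4 the Pearson correlation was 0.24 between A and B (365 genes) and 0.27 between A and C (429 genes). For kidney 1 it was 0.22 and 0.20, and for kidney 5 it was 0.06 and 0.07. Kidneys 2 and 3 gave 0.05 and 0.08 with B and 0.04 and 0.01 with C. Kidney 1 of A correlated at -0.25 with kidney 4 of B and at -0.27 with kidney 4 of C, and deviations from a shared mean are tied to each other by construction. So the profile of the kidney numbered 4 on A was most like that of number 4 on B and on C. The strain of that kidney on A was not tested and stays unsettled.

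**Figure D4:**
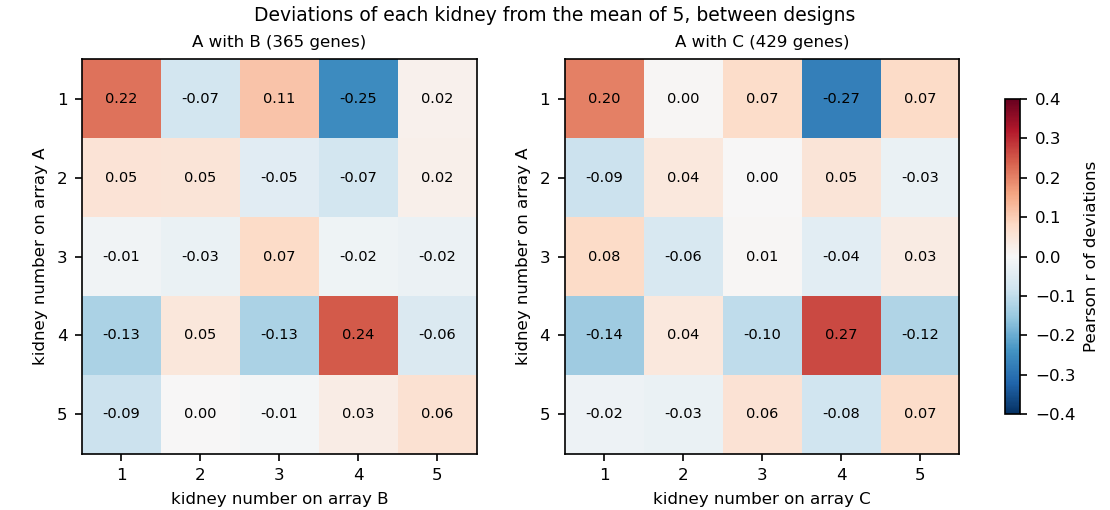
Pearson correlation, across genes tested on both designs, of the deviation of each kidney on array A (vertical) with that of each kidney on array B (left, 365 genes) or C (right, 429 genes). The cells for kidney 4 with kidney 4 hold the highest values, 0.24 and 0.27, and those for kidney 1 with kidney 1 the next, 0.22 and 0.20.

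The named genes called without kidney 5 included several metabolic enzymes. Pck1, the cytosolic PEP carboxykinase that limits gluconeogenesis, read 5048.4, 5358.1, 4801.6 and 5010.2 in kidneys 1, 2, 3 and 5 and 14299.4 in kidney 4. On array C it was also highest in kidney 4, at 41283.9 against 18562.3 to 23614.9. Bhmt, which makes methionine from betaine and homocysteine, read 342.2, 248.4, 407.1 and 343.6 against 1508.3 in kidney 4. Lpl, the lipoprotein lipase, read 873.1, 650.6, 775.7 and 915.3 against 2524.2 on 1 probe set and was called on a further one. Hsd17b4, an enzyme of peroxisomal fatty acid oxidation, read 1422.8, 1361.4, 1372.0 and 1647.0 against 4038.2. On each of these probe sets kidney 5 lay with or near kidneys 1, 2 and 3, but not on every probe set of these genes. Another Lpl probe set read 1054.7, 1190.4 and 782.6 in kidneys 1, 2 and 3 against 1871.8 and 1357.4, without overlap. Another Hsd17b4 probe set read 343.3, 364.6 and 350.5 against 848.9 and 153.9, with kidney 5 the lowest.

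Genes that were low in kidney 4 alone included Gstt2, a glutathione S-transferase of the theta class. One probe set read 3395.0, 3333.6, 3931.2 and 3164.8 in kidneys 1, 2, 3 and 5 and 112.3 in kidney 4 (adjusted p = 0.000338 without kidney 5). A further probe set of Gstt2 read 1780.9 in kidney 4 and 1493.8 to 2106.1 in the others, so the difference rests on a single probe set. Trpv1, the capsaicin-gated cation channel of chromosome 10, read 748.5, 898.5, 899.1 and 828.3 against 157.9. Acsm3, an acyl-CoA synthetase, read 1791.0, 1758.5, 1573.7 and 1237.0 against 593.1.

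Slc12a3, the thiazide-sensitive sodium chloride cotransporter of the distal tubule, was among the calls without kidney 5. That probe set read 732.8, 787.9, 747.9 and 552.7 in kidneys 1, 2, 3 and 5 and 2241.4 in kidney 4. A further probe set gave -0.05 for kidney 4 against the mean of kidneys 1, 2 and 3, so no direction is given for the gene. Of the 32 genes with a known chromosome at which kidney 4 was isolated, 2 (6.25%) lie on chromosome 10, against 9.21% of all tested genes.

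Liver transcripts were measured beside these genes, since Cyp2c11, Rbp4, Gc and Bhmt are abundant in liver. The albumin probe sets read 11.8 to 111.4 in kidney 4 and 11.9 to 181.1 in kidneys 1, 2 and 3. Apoa2, an apolipoprotein of the same list, was below the filter, at 37.3, 55.7 and 40.3 in kidneys 1, 2 and 3 and 131.5 and 131.7 in kidneys 4 and 5. The 6 tested genes of the liver list summed to 2434 to 2604 in kidneys 1, 2 and 3, 4713 in kidney 4 and 2694 in kidney 5. Without Cyp2c11 the sums were 2371 to 2526, 1812 and 2313. In whole kidney, fewer cells of a type and less RNA per cell cannot be told apart.

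**Figure D5:**
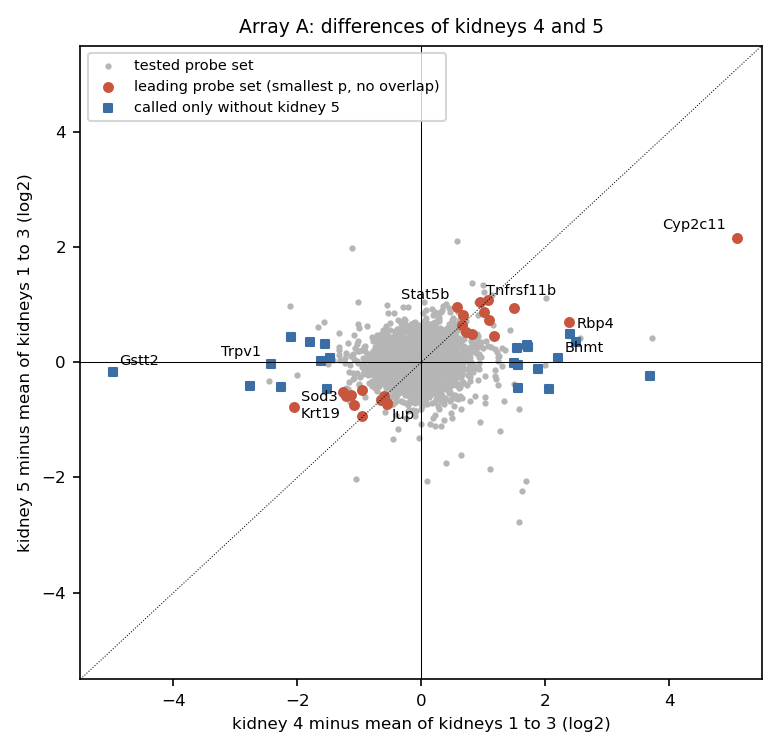
Log2 difference of kidney 4 (horizontal) and of kidney 5 (vertical) from the mean of kidneys 1 to 3, for the 4411 tested probe sets of array A, with the 24 leading probe sets in red and those called only when kidney 5 is left out in blue. Jup, Stat5b and Tnfrsf11b lie near the dotted line of equality, while Gstt2 (-4.98 and -0.16) and Bhmt (2.21 and 0.08) lie near the horizontal axis. The brighter probe set of Krt19 (-0.96 and -0.93) lies near the dotted line, and its dimmer one (-1.14 and -0.57) lies off it.

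Gene lists of kidney functions were described by counts and medians, each with the brightest probe set of a gene. limma called 0 genes in any of the lists, and the number at an unadjusted p under 0.05 ran from 0 to 2 in each, against 3.25% of all tested genes. The lists of blood pressure control lay close to the whole array. Of 21 tested pressor hormone genes 8 were higher and 13 lower, with a median of -0.04 (-0.17 in kidney 4 and 0.04 in kidney 5). Of these, 3 did not overlap, against 19.2% of all tested genes. Agt, the angiotensinogen precursor, read 1370.3, 1315.7 and 1201.7 against 897.1 and 1112.0, a log2 difference of -0.37 (SE 0.17).

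Salt and water transport had 24 tested genes, 9 higher and 15 lower, with a median of -0.09 (-0.03 in kidney 4 and -0.10 in kidney 5). Stk39, the kinase SPAK that activates sodium chloride cotransport, gave 0.35 on the probe set named by the rule and 0.26 and -0.49 on its others. Aqp3, the basolateral water channel of the collecting duct, gave 0.38 (0.55 in kidney 4 and 0.21 in kidney 5). Aqp2 gave 0.31 (0.47 in kidney 4 and 0.15 in kidney 5), and neither gene overlapped. Slc9a3, the sodium hydrogen exchanger of the proximal tubule, gave 0.52 with overlap (0.94 in kidney 4 and 0.10 in kidney 5). Of the 17 tested candidates for blood pressure on chromosome 10, 8 were higher and 9 lower, with a median of -0.02.

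Sterol and fatty acid synthesis was the list with the highest median among the gene lists. Of 15 tested genes, 12 were higher and 3 lower, and the median was 0.19. Groups did not overlap for 5 genes, all of them higher, against 19.2% of all tested genes. Sqle, the squalene epoxidase, read 1017.7, 1002.4 and 1235.1 in kidneys 1, 2 and 3 and 1361.1 and 1447.3 in kidneys 4 and 5, a log2 difference of 0.38 (SE 0.17). Fdft1, the squalene synthase, gave 0.25, and its 3 other tested probe sets gave 0.18, 0.34 and 0.41. The median deviation of the list from the mean of kidneys 1, 2 and 3 was 0.20 in kidney 4 and 0.16 in kidney 5, and -0.07 to 0.08 in the earlier kidneys. No gene of this list had an unadjusted p under 0.05.

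Gluconeogenesis and amino acid metabolism had 20 tested genes, 16 higher and 4 lower, with a median of 0.12. The median deviation was 0.24 in kidney 4 and 0.05 in kidney 5. Fatty acid oxidation had 20 tested genes, 11 higher and 9 lower, with a median of 0.003 (0.01 in kidney 4 and -0.08 in kidney 5). Its 7 genes without overlap, against 19.2% of all tested genes, went both ways, 2 higher and 5 lower. Hadhb, a subunit of the mitochondrial trifunctional protein, gave 0.33 (0.34 in kidney 4 and 0.31 in kidney 5). Eci1, an enoyl-CoA isomerase of chromosome 10, gave -0.48 (-0.22 in kidney 4 and -0.74 in kidney 5). A further tested probe set of Eci1 gave -0.17 with overlap. The proteasome list had 16 of 21 genes higher, with a median of 0.07 (0.06 in kidney 4 and 0.10 in kidney 5).

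Lists of matrix, immune and ribosomal genes had medians below that of the array. Of 21 matrix and fibrosis genes 18 were lower, with a median of -0.17, and the median deviation was -0.32 in kidney 4 and -0.11 in kidney 5. Kidneys 1, 2 and 3 ranged from -0.18 to 0.14, so kidney 5 lay within the earlier kidneys. Of 15 genes of the major histocompatibility complex and interferon response 12 were lower, with a median of -0.17, -0.42 in kidney 4 and 0.02 in kidney 5. RT1-CE16, a class I gene, read 20096.6, 16771.4 and 19945.6 against 8860.0 and 15542.3, a log2 difference of -0.69. The 5 tested leukocyte markers had a median of -0.27, -0.41 in kidney 4 and -0.04 in kidney 5, and the 14 on the array summed to 12560 to 18240 in kidneys 1, 2 and 3, 12130 in kidney 4 and 16300 in kidney 5. The part of leukocyte content in these lists was not tested.

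Of 36 ribosomal protein genes 27 were lower, with a median of -0.12, and kidneys 4 and 5 (-0.09 and -0.10) lay within the range of kidneys 1, 2 and 3 (-0.12 to 0.09). Metallothionein and heat shock genes had 9 of 14 lower. Of these genes 5 had no overlap, all of them lower, against 19.2% of all tested genes. Tubular injury had 10 of 16 lower, with a median of -0.15, -0.35 in kidney 4 and 0.06 in kidney 5. Respiratory chain genes were evenly divided, 10 higher and 11 lower, with a median of -0.02. Proximal tubule transport (14 of 23 higher, median 0.02), arachidonic acid and P450 (11 of 19 higher, median 0.03), and growth hormone and IGF signalling (7 of 15 higher, median -0.02) lay close to the median of all genes.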

How the data were processed

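Total RNA of 5 rat kidneys was hybridised to array design A and the same kidney numbers to designs B and C. The values deposited by the authors are linear signal intensity per probe set. The software that made them is not given in the sources used here, and the trimmed means show that the arrays had been scaled to each other, which was kept. Intensities below the 25th percentile over a design's 5 arrays (85.1 on A) were set to it, and log2 was taken. The 4411 probe sets of A with a mean of at least 319.5 were tested in R 4.3.3 by limma 3.58.1 (functions lmFit, eBayes), with Benjamini-Hochberg adjustment over all of them and a threshold of 0.05. Array precision is limited by the number of arrays. The procedure was tested on simulated data.

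Gene symbols came from the platform annotation and were updated to RefSeq GRCr8. Of the non-control probe sets of A, 7006 had 1 symbol (6985 matched by identifier), 308 had several and 1426 had none, and the last 2 classes were not named. GRCr8 gave chromosome, gene order and promoters.

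Named genes were the 24 probe sets with the smallest p and no overlap, chromosome 10 genes with an unadjusted p under 0.05 and no overlap (at most 15), up to 3 genes of each list, and genes named earlier on B and C. Probe sets without a symbol, Trpv1 and other genes called without kidney 5, and the neighbours of Krt19 were chosen after their values were seen. The members and lists were chosen with earlier results of these data known. Alternatives were quantile and median scaling, other floors and filters, an intensity trend, array weights and leaving out each kidney. The result of every list is given in the report or at the end.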

Additional observations from a re-analysis of the deposited data

Results flagged for a closer look

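For 3 genes a probe set of array A and a probe set of array C had differences of opposite sign. On each of these probe sets both later kidneys lay outside the range of kidneys 1, 2 and 3. The difference between the designs was not tested in any of these genes. Hsp90b1, an endoplasmic reticulum chaperone, had a log2 difference of -0.29 on A and 0.53 on a probe set of C, while a brighter probe set of C gave -0.33. Its other tested probe sets on A gave -0.07 and 0.035, both with overlap, so the opposite signs rest on a single pair of probe sets. Proc gave 0.63 on A and -0.30 on C. Rpl30, a ribosomal protein gene, gave 0.87 on A and -0.40 on C. No outlier test was run within the groups, which hold 3 and 2 kidneys.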

How the results depend on the processing

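The count of 0 called probe sets stayed 0 under quantile or median scaling, other floors, a stricter filter, an intensity trend and array weights. It was 2 without a filter on low values (Apoa2 and Akr1c14, with kidneys 1, 2 and 3 below the floor) and 0 to 25 when 1 kidney was left out, the 25 without kidney 5. Chromosome 10 genes at an unadjusted p under 0.05 numbered 11, 31 without a filter, 5 with the filter at the 75th percentile and 8 to 17 when 1 kidney was left out, 17 of them without kidney 5. Their share of 4.38% was 1.2% at an unadjusted p under 0.01, 23.1% by lack of overlap and 3.19% to 6.77% when 1 kidney was left out. The share on other chromosomes was 3.15%, 4.74% without a filter, 4.42% with the stricter filter and 2.79% to 7.44% when 1 kidney was left out, the highest without kidney 5. Fewer or more probe sets were tested under the filters, and the cause of the other shifts was not tested. Among the 113 named probe sets, 13 changed sign in some setting. When 1 kidney was left out the log2 difference ranged from -0.015 to 1.498 for Pck1, -1.43 to 0.04 for Nos3, -0.008 to 0.93 for Cyp4f1, -1.10 to 0.23 for Nr1d1, -0.78 to 0.20 for Cela2a, -0.002 to 0.29 for Hbb, -0.30 to 0.96 for Kdr, -0.10 to 0.38 for Egf, -0.06 to 0.30 for Bmal1, -0.11 to 0.27 for Pecam1, -0.21 to 0.073 for Acta2, -0.14 to 0.061 for Cela1 and -0.33 to 0.24 for Vezf1. Median scaling also turned Cela1 (0.015) and Vezf1 (0.021). No paired analysis was possible because the kidney numbers differ between the groups, 1 to 3 against 4 and 5. The 25 calls required leaving out kidney 5, and the number of arrays limits every difference.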

Other observations

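The marker lists of other cell types were also measured on array A. Proximal tubule markers had a median log2 difference of -0.08 (3 of 9 tested genes higher), loop of Henle and distal tubule markers -0.12 (1 of 6 higher) and glomerular markers 0.27 (3 of 4 higher). Blood markers were higher in 4 of 4 genes, with a median of 0.20, and the summed signal was 25480 to 35410 in kidneys 1, 2 and 3, 33450 in kidney 4 and 38030 in kidney 5. Endothelial markers gave 0.08 (2 of 3 higher), smooth muscle and juxtaglomerular markers -0.16 (1 of 4 higher) and adrenal markers -0.11 (2 of 4 higher). Pancreas markers gave -0.04 (1 of 5 higher), adipose markers 0.21 (1 of 2 higher) and 1 skeletal muscle gene, Myh1, 0.25. Immediate early genes had a median of 0.06 (8 of 12 higher), cell cycle genes -0.08 (4 of 12 higher), clock genes -0.04 (3 of 6 higher) and glutathione and xenobiotic defence genes -0.04 (11 of 28 higher). None of these lists held a called gene.

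Kidney 3 was isolated at 19 probe sets of array A, all with the lowest value. Hnf4a, a transcription factor of the proximal tubule, read 100.6 in kidney 3 and 473.5 to 871.8 in the other 4 kidneys on 1 probe set. On it kidneys 4 and 5 lay 1.43 and 0.57 log2 units from the mean of kidneys 1, 2 and 3. A further tested probe set of Hnf4a gave 0.24 and -0.01, so no direction is given for the gene. Clu, a glycoprotein of tubular stress, read 10040.4 in kidney 1 and 2409.4 to 4605.0 in the others.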
